A study of Medicago truncatula with 18 samples.

Results

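The genes described here are 83 of the 50444 genes of the *Medicago truncatula* transcriptome whose mean TPM (a share of the transcripts of a library, and so a level corrected for gene length and library size) was higher in LD than in SD at ZT4 and close to SD at ZT0 and ZT2. They were chosen by these values: d, the log2 ratio of LD to SD after adding 1 to each mean TPM, had to be at least 1.25 at ZT4, a 2.38-fold difference, and within 0.5 of 0, a 1.41-fold difference, at both earlier timepoints. *MtFTb1* and *MtFTb2* were left out of the set. In all, 371 genes reached the limit at ZT4, 42123 lay within the window at ZT0 and ZT2, and the same rule with the sign turned at ZT4 gave 93 genes. The differences between LD and SD at ZT0, ZT2 and ZT4 are therefore a description of the choice and carry no test.

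All plants were of the accession Jester, were vernalised as germinated seed, and grew in SD, with 8 h of light and 16 h of dark, until day 10. SD plants then stayed in SD, and LD plants were moved to 16 h of light and 8 h of dark with lights on (ZT0) at the same hour. At ZT0 and ZT2 the plants were 13 days old and had spent 3 days in LD, and RNA-Seq libraries were made with a ScriptSeq kit. At ZT4, in a second experiment, they were 15 days old and had spent 5 days in LD, and libraries were made with a TruSeq Stranded mRNA kit. Each of the 6 groups held 3 libraries, each from the pooled first trifoliate leaves of 2 plants, so time of day, plant age, days in LD and kit cannot be told apart between ZT4 and the earlier timepoints. In such whole leaves, less RNA per cell and fewer cells of one type cannot be told apart either.

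*M. truncatula* is a legume that flowers earlier in LD, and its leaves read day length through photoreceptors and the circadian clock, which set when in the day many transcripts accumulate. The hour at which such transcripts peak often moves with day length, so that a photoperiod difference can be seen at some hours of the day and not at others. B-box zinc finger proteins, a family that includes the CONSTANS-like regulators, and other light signalling proteins are among the genes known for such daily rhythms in plants.

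The LD replicates were far apart for many members, and this bears on the values that follow. In LD at ZT0 the highest of the 3 replicates was over 1 log2 unit above the lowest for 45 of 83 members (54.2%), against 6.51% of the 20228 genes with a mean TPM at or above that of the lowest member. In SD at ZT0 this held for 8 members (9.64%), against 3.46% of these genes. Replicate 3 of LD at ZT0 was the highest for 54 members, where it was the highest for 22.5% of all genes. Replicate 2 was the lowest for 49 members, where it was the lowest for 33.2% of all genes. For 36 members (43.4%) replicate 2 was at most 0.5 times the level of both other LD replicates, which was so for 4.18% of all genes. The 36 include *Medtr8g062800*, which had 0 TPM in both replicates 2 and 3, and *Medtr4g113840*, with only 8, 1 and 4 counts. Library totals lay between 18009808 and 19560647 estimated counts at ZT0 and ZT2 and between 20690658 and 23201592 at ZT4, and the lowest was that of replicate 2 of LD at ZT0. The 6 genes described as chlorophyll a/b-binding proteins summed to between 2884 and 5267 TPM in every library. The 5 described as rubisco small chains summed to at least 61582 TPM, and these leaf markers were abundant throughout. Nodulin and leghemoglobin genes (21 described) summed to between 41.3 and 160 TPM, and 10 genes described as legumins, vicilins or albumins to between 347 and 3334 TPM.

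*Medtr8g076160*, one of the most abundant members, showed this spread plainly. Its TPM in SD at ZT0 was 126, 153 and 116, and in LD at ZT0 it was 138, 28.6 and 243. Its LD mean of 136 ± 107 (SD, n = 3) was close to the SD mean of 132 ± 19.1, with one LD replicate below and another above the 3 SD replicates. At ZT4 it was at 67.4, 73.9 and 70.6 in SD and at 198, 241 and 241 in LD, where the groups did not overlap. In 37 members replicate 2 of LD at ZT0 lay below and replicate 3 above every SD replicate, so that a d near 0 at ZT0 was there the mean of unlike libraries. Of these 37 members, 34 were among the 36 named above. The share of all genes with replicates 2 and 3 so placed was not counted.

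These 36 members also deviated together in libraries that had no part in marking them. In LD at ZT2, replicate 3 was below the group mean for 35 of the 36, with a median deviation of -0.45 on the log2(TPM + 1) scale, and for 29 of the other 47 (median -0.13), against -0.01 for all genes. In LD at ZT4, replicate 1 was below the group mean for 34 of the 36 (median -0.23) and for 27 of the other 47 (median -0.12), against a median of 0.04 for all genes. In SD at ZT2, replicate 3 was below it for 33 of the 36 (median -0.16) and 25 of the other 47 (median -0.03), and in SD at ZT4 the medians of the 3 replicates were all within 0.03 of 0. The replicate numbers do not link plants across groups. Among the 36, *Medtr5g071170*, *Medtr2g036670*, *Medtr3g088800* and *Medtr5g045300* were below the group mean in each of the libraries named for LD ZT2, LD ZT4 and SD ZT2. *Medtr7g116520* was not so in SD at ZT2, nor *Medtr8g076300* in LD at ZT4. The part of this spread in the results was not tested beyond leaving libraries out.

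**Figure D1:**
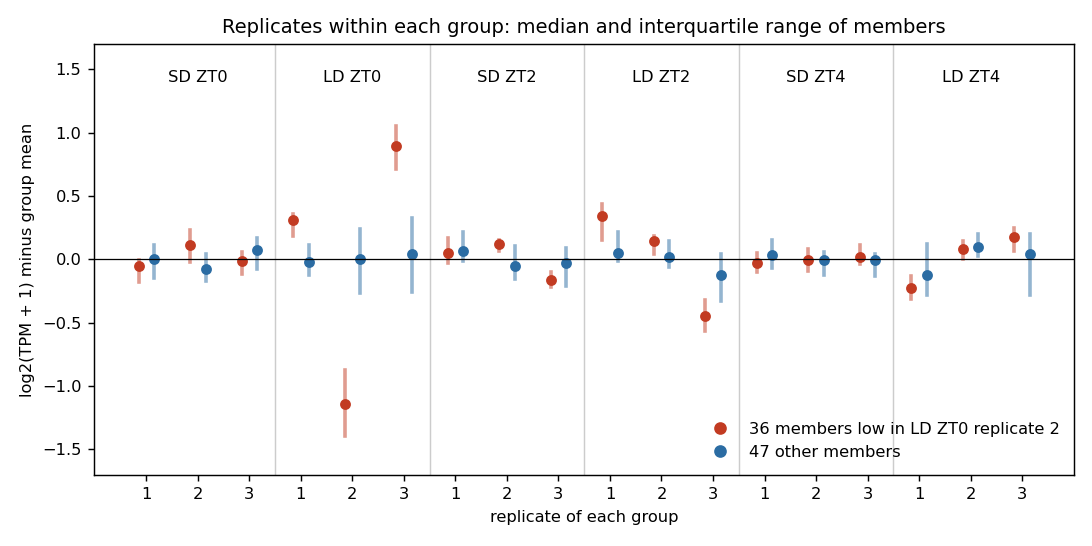
Deviation of each library from its group mean, in log2(TPM + 1), for the 36 members whose LD ZT0 replicate 2 was at most 0.5 times both other replicates and for the 47 other members. Points are medians over members and bars the interquartile range; the 36 members fall to -1.14 in LD ZT0 replicate 2 and rise to 0.90 in replicate 3, while the other members stay near 0.

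Leaving libraries out changed which genes met the rule. Without replicate 2 of LD at ZT0, 27 of the 83 members no longer met it, 15 of the 36 and 12 of the other 47, and 10 other genes entered. In the 36 the median d at ZT0 was then 0.44. Over all 18 libraries left out in turn, 13 members stayed in the set each time, among them *Medtr2g023540*, *Medtr1g102810*, *Medtr4g083995*, *Medtr4g084950* and the neighbours *Medtr1g022440* and *Medtr1g022455*.

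**Figure D2:**
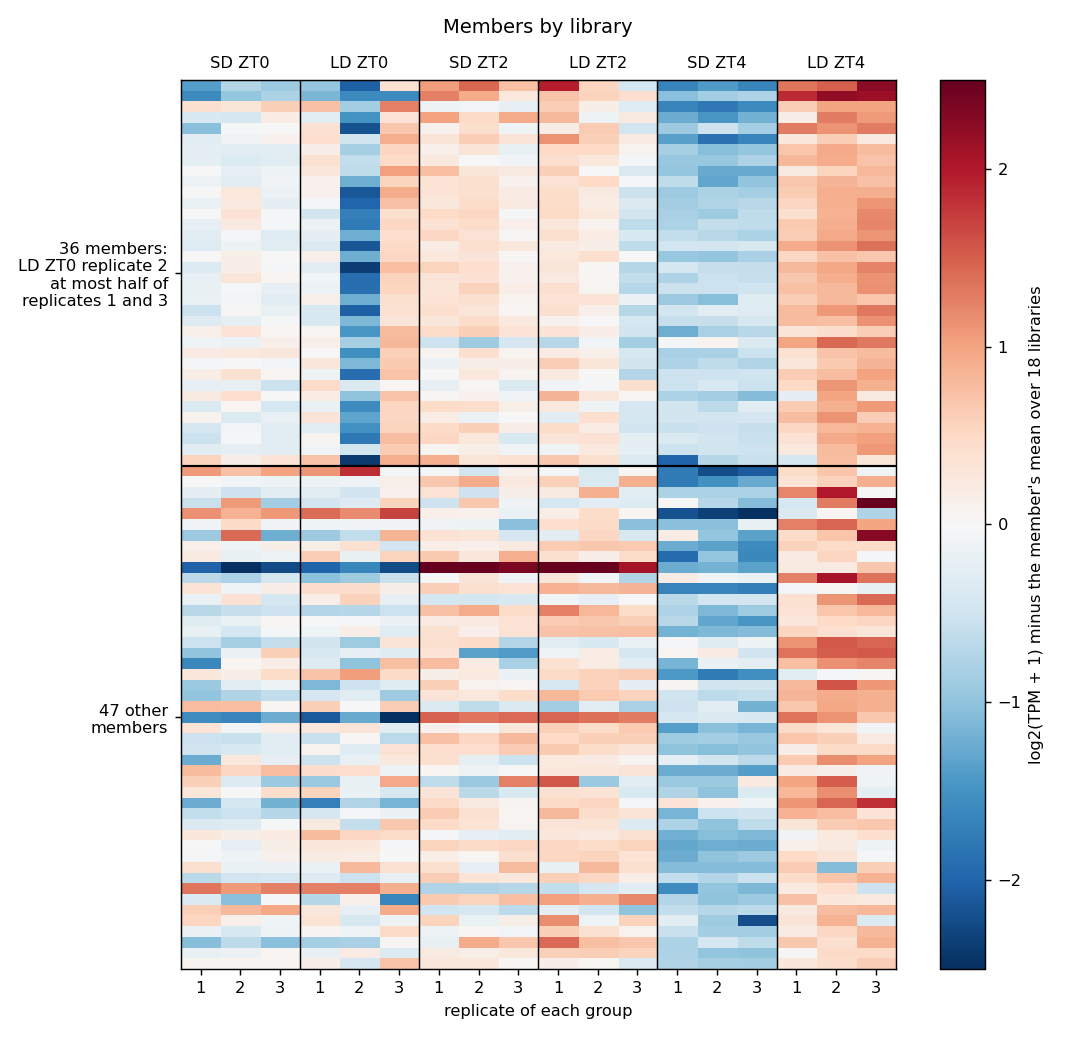
Level of each member (rows) in each of the 18 libraries (columns, replicates 1 to 3 of each group), as log2(TPM + 1) minus the member's mean over all libraries. The 36 members above the line are pale or blue in SD at ZT4, mostly red in LD at ZT4 and pale to dark blue in replicate 2 of LD at ZT0. The 47 below the line share the ZT4 contrast.

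At ZT4 the levels of members spanned a wide range. The LD mean ran up to 1186 TPM with a median of 11.4 TPM, and the SD mean from 0 to 447 TPM with a median of 3.27 TPM. In LD, 8 members reached 100 TPM and 35 stayed under 10 TPM. The median d was 0.07 at ZT0, 0.00 at ZT2 and 1.45 at ZT4, and the highest d at ZT4 was 3.33. The 3 LD replicates were all above the 3 SD replicates at ZT4 for 79 members, where 14.5% of all genes with any TPM showed this, and the rule itself asks for such a difference. In a fit of the counts by edgeR, 80 members passed at an adjusted p of 0.05 with LD above SD at ZT4, against 14.8% of all genes tested, from which nothing is read for the same reason. Marker sums differed with photoperiod at ZT4, with chlorophyll a/b-binding genes at 2936 to 3027 TPM in SD and 3947 to 4482 in LD, nodule genes at 141 to 160 and 80.3 to 94.5, and seed storage genes at 1622 to 1742 and 2443 to 3334. They already differed at ZT0, with chlorophyll a/b-binding genes at 2884 to 3359 TPM in SD and 4881 to 5267 in LD, seed storage genes at 347 to 562 and 1350 to 2671, and nodule genes, in the other direction from ZT4, at 41.3 to 47.5 and 111 to 144. These sums rest on the genes with a description at hand, which may be only part of each family. They do not show that nodule or seed tissue was in the leaf samples. The part of these marker genes in the result was not tested. The 3 members that did not pass, *Medtr0024s0250*, *Medtr2g094890* and *Medtr7g104280*, overlapped between the groups, as did *Medtr0002s0260*. At ZT2, where the rule allows small differences, 12 members passed with LD above SD (12.8% of all genes did) and *Medtr1g088430* with LD below, and at ZT0 *Medtr2g099010* passed with LD below SD. These contrasts are also part of the rule, and nothing is read from the calls. Of these genes, *Medtr2g103840* had 63.4, 61.0 and 65.5 TPM in SD and 88.2, 90.2 and 88.5 TPM in LD at ZT2, and its d there, 0.49, was just inside the window.

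**Figure D3:**
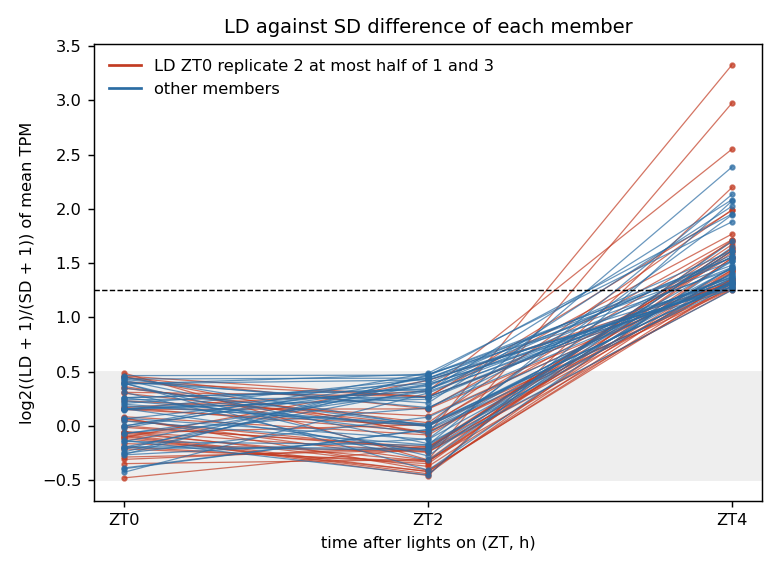
d, the log2 ratio of LD to SD mean TPM after adding 1, of each of the 83 members at ZT0, ZT2 and ZT4. The grey band (0.5 either way) and the dashed line (1.25) are the limits that chose the members, so all lines start in the band and end above the line; the highest reaches 3.33.

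Descriptions were at hand for 11 of the 83 members, and the other 72 are given by identifier with no role. Of these, 2 are annotated as zinc finger proteins and 1 as a salt tolerance-like protein. *Medtr4g008050* encodes a B-box type zinc finger protein with a CCT domain, the domain shared with CONSTANS, and B-box proteins act in light signalling. It was low at dawn, with 3.14, 2.86 and 4.16 TPM in SD and 1.85, 4.07 and 1.08 in LD at ZT0. At ZT2 it had reached 32.8, 29.9 and 31.4 TPM in SD and 32.6, 30.7 and 28.7 in LD. At ZT4 it was at 8.12, 8.53 and 8.39 TPM in SD and 30.1, 25.4 and 18.4 in LD. Both photoperiods thus shared its level at ZT2, and at ZT4 it was low in SD while the LD replicates overlapped those of ZT2, with a mean of 24.6 ± 5.90 TPM against 8.35 ± 0.205 TPM (n = 3). Without replicate 2 of LD at ZT0 its d at ZT0 was -0.83, and it left the set. The paper lists it as lower in LD at ZT0, so a like level at dawn is not secure.

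*Medtr2g099010* is described as a salt tolerance-like protein and is also a CCT domain gene, and the Arabidopsis protein of this name is a B-box protein of light signalling. It was among the most abundant members, with 1378, 1131 and 1352 TPM in SD at ZT0 and 1079, 1065 and 726 in LD. At ZT2 the values were 819, 727 and 800 TPM in SD and 955, 949 and 989 in LD, and at ZT4 the SD replicates gave 335, 334 and 304 TPM against 914, 875 and 742 TPM in LD. In SD its level was lower at each later timepoint, and in LD the 3 group means lay between 844 and 964 TPM. This gene too left the set without replicate 2 of LD at ZT0, with a d of -0.51 at ZT0. The paper also lists it as lower in LD at ZT0. *Medtr4g113840*, a zinc finger gene of the Ran-binding type, was near the detection limit. At ZT4 the SD libraries held 0, 1 and 0 counts of it and the LD libraries 10, 21 and 17, a ratio of 44.4 per total count with a 95% exact interval of 7.60 to 1791 for counting error alone. Its means were 0.165 TPM in SD and 0.542 in LD at ZT0, and 0.288 and 0.550 at ZT2. At such levels the 1 added to each mean keeps d small, so a difference limited to ZT4 is not shown for this gene.

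Among the paper's candidates, 13 are listed as CCT domain genes, apart from the CONSTANS-like and CMF groups. Of these, 11 were tested at ZT4. LD was above SD for 7 and below for 2, where 14.8% and 15.5% of all genes passed in these directions, and 2 of the 7 are members chosen for being higher. The 5 that are no members include *Medtr4g046640*, whose mean at ZT4 was 0.224 TPM in SD against 8.46 TPM in LD and which was outside the set for its d of 1.17 at ZT2. The largest difference in the other direction was at *Medtr2g073370*, with means of 5.11 TPM in SD against 0.160 TPM in LD. Among the 11 CONSTANS-like genes 4 were higher and 5 lower in LD at ZT4, and none is a member. The CMF group holds 18 genes, most of them described as CCT motif proteins. Of its 14 genes tested, 2 were higher and 1 lower in LD at ZT4, and none is a member.

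*Medtr2g036670* is annotated as a transcription factor or regulator with no family given. It had 1.91, 1.67 and 2.06 TPM in SD and 13.1, 17.3 and 17.2 TPM in LD at ZT4, where the groups were apart by a factor of 8.44 in their means. At ZT0 its LD replicates were 14.2, 4.02 and 20.9 TPM, on both sides of the SD values of 11.1, 10.3 and 13.0. *Medtr1g025220* encodes a GASA/GAST/Snakin peptide, a family of small cysteine-rich secreted peptides, several of which respond to gibberellin in Arabidopsis. It had 387, 308 and 371 TPM in SD and 399, 671 and 179 TPM in LD at ZT0. At ZT4 it had 54.4, 39.2 and 43.2 TPM in SD and 255, 298 and 174 TPM in LD. Replicate 2 was here the highest and replicate 3 the lowest of LD at ZT0, the reverse of the order in the 36 members named above.

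The other described members differ in role. *Medtr2g103840* encodes a LURP-one-like protein, a family named for an Arabidopsis gene of defence against downy mildew, and had 23.03, 21.5 and 18.1 TPM in SD and 83.7, 77.0 and 77.9 TPM in LD at ZT4. *Medtr4g084950*, a putative transmembrane protein, had 10.7, 10.9 and 10.2 TPM in SD and 34.7, 36.8 and 31.7 in LD. In these 2 genes the replicates at ZT4 were tight and the groups well apart. *Medtr1g052885* encodes a protein with an EF-hand, a motif that binds calcium, and had 2.42, 2.24 and 1.77 TPM in SD and 3.96, 10.7 and 5.86 in LD. *Medtr4g083540*, of the S-ribonuclease-binding family, had 0.417, 0.564 and 0.501 TPM in SD and 2.05, 2.87 and 3.38 in LD. *Medtr1g115475*, a glycoside hydrolase of family 20, whose enzymes remove terminal amino sugars, was at or below 0.213 TPM in SD and between 1.05 and 2.63 TPM in LD. *Medtr6g072705* is described as hypothetical. All 4 were low, and their groups did not overlap at ZT4.

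**Figure D4:**
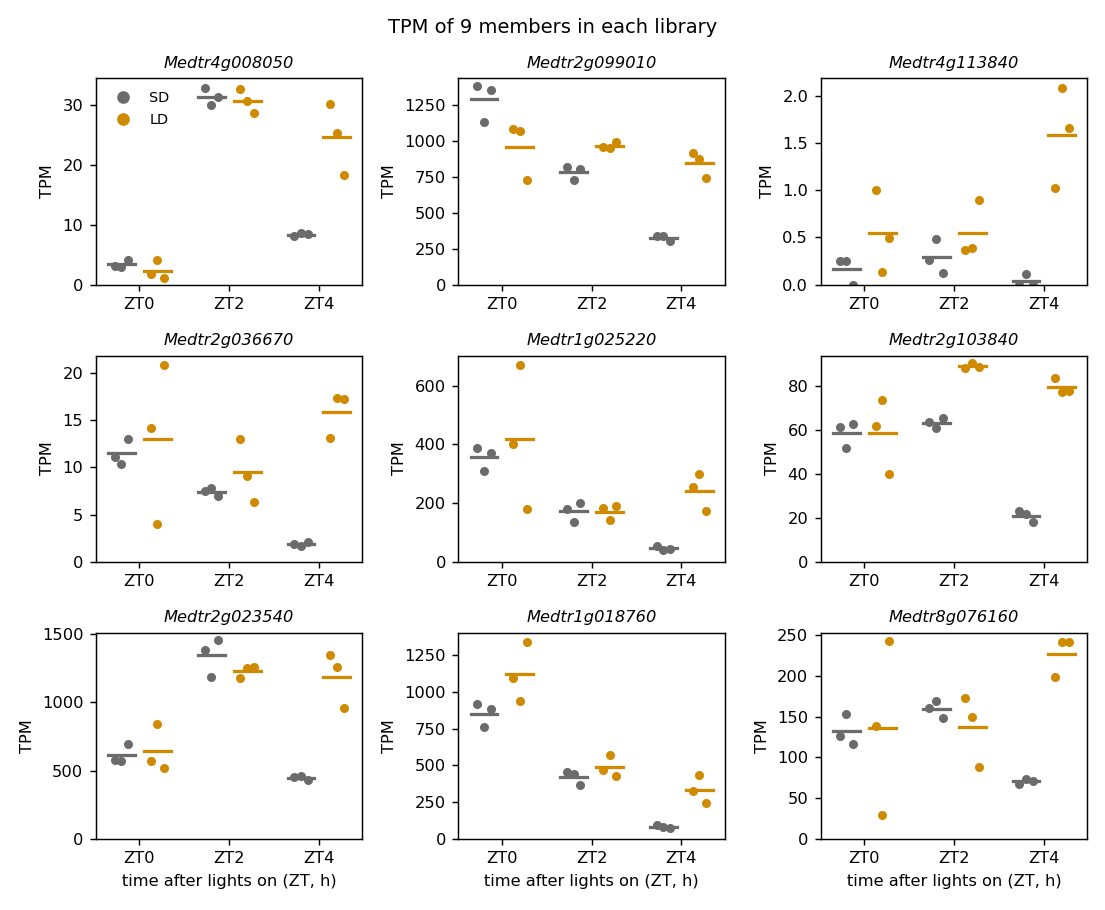
TPM of 9 members in each library at ZT0, ZT2 and ZT4, with SD in grey and LD in orange; points are the 3 replicates of a group and bars their means. At ZT4 the groups are apart in every panel. The LD replicates at ZT0 lie on both sides of SD in *Medtr8g076160* and *Medtr2g036670*, and also in *Medtr1g025220*, *Medtr2g103840* and *Medtr2g023540*.

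The 12 members with the highest d at ZT4 were led by *Medtr5g071170*, with 0.352, 0.612 and 0.354 TPM in SD and 9.84, 11.1 and 19.4 TPM in LD. The second, *Medtr8g062800*, had 0.468, 0.664 and 0.776 TPM in SD and 10.1, 13.1 and 12.4 in LD. Both were low at dawn and had higher means at ZT2 in each photoperiod. In LD the replicates of *Medtr5g071170* overlapped, with 1.18, 0.0396 and 4.62 TPM at ZT0 and 15.7, 5.21 and 2.17 at ZT2. Next by d came *Medtr2g036670* and *Medtr1g025220*, described above. After them came *Medtr7g116520*, *Medtr4g083995*, *Medtr3g435290*, *Medtr0002s0260*, *Medtr1g018760*, *Medtr8g076300*, *Medtr7g065160* and *Medtr6g034595*, with d from 2.20 to 1.95. Some of these rest on few reads or on 1 library. *Medtr3g435290* had 0 counts in each SD library at ZT4 and 19, 39 and 5 in LD, at least 6.48-fold higher per total count when SD is set to 3 counts in each library. *Medtr6g034595* had 0, 0 and 1 counts in SD and 5, 6 and 4 in LD, a ratio of 13.9 with an exact interval of 2.14 to 585. *Medtr0002s0260* had 32.8, 19.5 and 14.9 TPM in SD and 23.7, 81.3 and 187 in LD, so its groups overlapped and its mean in LD was carried by replicate 3. In all, 6 members had at most 3 counts in each SD library at ZT4 and 3 had at most 10 counts in every library.

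The 6 members with the highest LD level at ZT4 were *Medtr2g023540*, *Medtr2g099010*, *Medtr1g018760*, *Medtr1g025220*, *Medtr8g076160* and *Medtr1g063070*. *Medtr2g023540*, the most abundant, had 450, 460 and 429.6 TPM in SD, and 1345, 1259 and 956 in LD. *Medtr1g018760* had 90.7, 81.3 and 71.8 TPM in SD and 322, 431 and 247 in LD. *Medtr1g063070* had 64.5, 43.6 and 44.8 TPM in SD and 109, 186 and 132 in LD. For all 6 the fold between the means lay between 2.60 and 5.32, and no group overlapped.

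Near the limits the choice is fine. The members with the lowest d at ZT4 were *Medtr3g110115* and *Medtr2g009450*, both at 1.25, and the genes next below were *Medtr4g019310* and *Medtr3g101777*, both at 1.24. At ZT0, *Medtr6g021530* (0.48) and *Medtr8g038210* (-0.48) were inside and *Medtr1g102780* (0.50) and *Medtr7g090450* (-0.50) outside. At ZT2, *Medtr2g103840* (0.49) and *Medtr4g083540* (0.48) were inside, and *Medtr8g007380* (-0.50) and *Medtr1g013440* (0.52), described as a mitochondrial-type ribosomal protein, outside.

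The members were then compared between ZT2 and ZT4 as levels, across the 2 experiments and with no test. In SD, 67 of the 83 were lower at ZT4, with every replicate below every ZT2 replicate, where 16.4% of all genes with any TPM were. In LD, 39 had every ZT4 replicate above every ZT2 replicate (12.7% of all genes), 34 overlapped and 10 were lower (17.3%). The most frequent pairings were a lower SD level with an overlapping LD level, in 29 members, and a lower SD level with a higher LD level, in 28. A further 10 members were lower at ZT4 in both photoperiods, 10 were higher in LD with an overlapping SD level, and *Medtr1g045120* was higher in both. The median change of SD was -1.01 on the log2(TPM + 1) scale, against 0.10 for all genes at or above the lowest member's level, and that of LD 0.53 against -0.02. The ZT4 values enter the rule, so these counts describe the members and support nothing.

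The 2 kinds of members seen in the replicates also differed here. Of the 36 with the low LD ZT0 replicate, 34 were lower in SD and 26 higher in LD at ZT4 than at ZT2, and none was lower in LD. Of the other 47, 33 were lower in SD, 13 were higher in LD and 10 lower in LD. *Medtr1g102810*, one of the 47, had the most negative change in each photoperiod, -4.00 in SD and -2.04 in LD. It had 248, 404 and 222 TPM in SD and 257, 260 and 183 in LD at ZT2, and 17.4, 18.1 and 16.2 in SD and 50.3, 49.5 and 68.6 in LD at ZT4. Its level was thus far below that of ZT2 in both photoperiods, and further below in SD. At the other end, *Medtr0002s0260* had the highest LD change, 1.90, which rested on the replicate noted above.

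**Figure D5:**
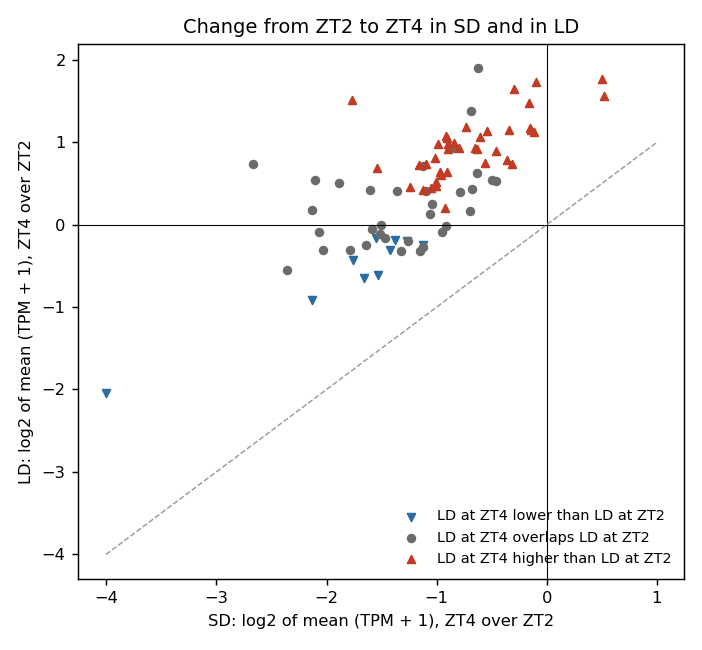
Change of each member from ZT2 to ZT4 in SD (horizontal axis) and LD (vertical axis), as log2 of the mean TPM plus 1 at ZT4 over ZT2, with symbols for whether the LD replicates at ZT4 were lower than, overlapped or were higher than those at ZT2. All points lie above the dashed line of equal change, as the rule demands, and most lie left of 0, with a median SD change of -1.01 and a median LD change of 0.53.

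The change from ZT0 to ZT2, averaged over SD and LD within the first experiment, was not used by the rule and was tested across 30111 genes. Of the 83 members 25 were higher at ZT2 and 7 lower at an adjusted p under 0.05 by edgeR, and 51 did not pass. Among all genes tested 19.2% were higher and 19.2% lower, so more of the members rose than fell, while the genes as a whole were even. Many of the genes tested had few counts and could hardly pass. With a stricter filter on low counts (filterByExpr of edgeR), 5659 of 20410 genes were higher and 5897 lower. Of the 74 members kept by that filter, 25 were higher and 7 lower. The share of members that rose, 25 of 83, was not itself tested against the others. The median log2 change of the members was 0.43, and 67 of the 83 had a change above 0. Neither value was computed for all genes, so they describe the members only. Marker sums moved over the same hours in SD, with nodule genes at 41.3 to 47.5 TPM at ZT0 and 79.2 to 96.1 at ZT2 and seed storage genes at 347 to 562 and 927 to 1198, while in LD nodule genes were at 111 to 144 and 90.9 to 96.0 and seed storage genes at 1350 to 2671 and 1541 to 2215. Their part in the change was not tested.

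The largest rise was that of *Medtr1g102810*, by 4.90 ± 0.18 (SE) on the log2 scale (adjusted p = 1.09e-11, edgeR), from 9.74, 6.70 and 8.24 TPM in SD and 9.91, 13.1 and 8.21 TPM in LD at ZT0. *Medtr8g062800* rose by 4.02 ± 0.48 (adjusted p = 3.54e-06) from at most 0.749 TPM in every library at ZT0. The B-box gene *Medtr4g008050* rose by 3.54 ± 0.17 (adjusted p = 1.46e-10). In all 3 genes every ZT2 replicate was above every ZT0 replicate. *Medtr2g023540*, the most abundant member, rose by 1.11 ± 0.11 (adjusted p = 3.86e-07), from between 519 and 845 TPM to between 1181 and 1460.

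The largest fall was that of *Medtr5g083270*, which had 37.5, 31.1 and 35.4 TPM in SD and 35.7, 35.8 and 27.2 in LD at ZT0, and between 8.04 and 11.6 TPM at ZT2. Its log2 change was -1.80 ± 0.09 (adjusted p = 1.74e-10). *Medtr7g118070* changed by -1.17 ± 0.22 (adjusted p = 4.43e-04), and the GASA gene *Medtr1g025220* by -1.09 ± 0.21 (adjusted p = 5.30e-04). In SD the ZT0 and ZT2 replicates of these 3 genes did not overlap. In LD those of *Medtr1g025220* did, since replicate 3 at ZT0 had 179 TPM and the ZT2 replicates 182, 141 and 190 TPM. *Medtr1g018760* fell as well, by 1.04 ± 0.10 (adjusted p = 4.63e-07). *Medtr2g099010* had a small average change of -0.27 ± 0.08 (adjusted p = 0.0153), with a change of -0.68 ± 0.11 in SD and of 0.15 ± 0.11 in LD.

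The spread among LD replicates at ZT0 bore on this test. Of the 36 members with the low replicate 2, 3 rose and none fell, where of the other 47, 22 rose and 7 fell. The median log2 changes were 0.39 in the 36 and 0.44 in the 47, with a median SE of 0.30 and 0.19. These medians keep the sign of each change and so do not compare the sizes of the changes. When replicate 3 of LD at ZT0 was left out, the members that rose were 50 rather than 25, of which 24 were among the 36, while 20.3% of all genes rose, and the low replicate 2 then weighed more in the ZT0 mean. When replicate 2 was left out instead, 4 of the 36 rose and 2 fell, with a median SE of 0.19. The median log2 change of the 36 was 0.74 without replicate 3 and 0.18 without replicate 2. In a fit of the 6 SD libraries alone, added after seeing the data, 40 members rose and 9 fell, of which 18 and 2 were among the 36, where 21.0% of all genes rose. The median log2 change of the 36 in SD alone was 0.55, with a median SE of 0.19.

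The members were spread over all 8 chromosomes named in the identifiers, with 17 on chromosome 1, 16 on chromosome 8 and from 4 to 10 on the others, and 3 lay on scaffolds. Chromosome 1 held 20.5% of the members and 14.3% of the genes above 1 TPM, and chromosome 8 held 19.3% and 12.1%. There were 3 pairs of members whose identifiers lie within 50 of each other. *Medtr1g075153* and *Medtr1g075170* are next to each other in the list and had log2 levels that correlated at r = 0.97 over the 18 libraries, which include the contrast that chose both. At ZT4 *Medtr1g075153* had 0.697 ± 0.14 TPM in SD and 4.78 ± 0.55 in LD, and *Medtr1g075170* had 1.78 ± 0.64 and 8.01 ± 0.62. Their neighbour *Medtr1g075180* was just under the limit, with a d of 1.21. *Medtr8g005960* and *Medtr8g005980*, also adjacent, correlated at r = 0.90. *Medtr1g022440* and *Medtr1g022455*, with 2 genes between them, correlated at r = 0.89, and *Medtr1g022445* between them had the larger d at ZT4, 2.77, but was no member because its d at ZT2 was 0.93. Whether reads are shared among such neighbours was not tested.

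The members were short as a group. The ratio of counts to TPM, which follows effective gene length, had a median of 0.58 times that of all genes above 1 TPM, with 0.76 in the 36 members with the low replicate and 0.46 in the other 47. The kits of the 2 experiments differ, and the part of gene length in the ZT4 values was not tested.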

How the data were processed

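RNA-Seq was analysed from 18 libraries of *M. truncatula* leaves, in 6 groups of 3. The authors trimmed the reads, quantified them with Salmon 0.8.2 against the Mt4.0v2 transcripts and summed transcripts to genes with tximport. They deposited estimated counts, not normalised, and TPM values. None of the 50444 identifiers was found in the RefSeq gene table, so descriptions follow the paper and no sequence is shown.

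The rule was applied to mean TPM with a pseudocount of 1. Members, lists and tests were chosen with earlier results of these data known. Counts were made whole by rounding, TMM-scaled and tested with edgeR 4.0.16 (quasi-likelihood, R 4.3.3), with genes of total count above 1, and adjusted by Benjamini-Hochberg at 0.05. ZT2 was set against ZT0 over the 12 libraries of the first experiment, and, timepoint by timepoint, LD against SD over 6 libraries, with 1 adjustment for the 3 timepoints. The edgeR script was tested on simulated counts. Alternatives used DESeq2 1.42.0, limma 3.58.1 on log2(TPM + 1), other filters and scalings, a replicate block and each library left out. Intervals cover counting error only. A group was at the floor with at most 3 counts in each library.

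Named genes were the 12 members with the highest d and the 6 with the highest LD level at ZT4, those in the paper's candidate lists or text, further members described as transcription factors, neighbours, members and genes next to each limit, and the 3 largest rises and falls from ZT0 to ZT2. The other described members and those named as examples were added after their values were seen.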

Additional observations from a re-analysis of the deposited data

How the results depend on the processing

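The number of members was 128 with a pseudocount of 0.5, 352 with 0.1, 185 with a minimum d of 1, 38 with 1.5 and 54 with a window of 0.4, and of the main 83 they held 70, 63, 83, 38 and 54. With TMM-scaled CPM it was 106, with 57 shared, and with medians of replicates 89, with 63 shared. Leaving out each library gave 66 to 100 members. The members changed between ZT0 and ZT2 numbered 31 to 57 when each library was left out, those higher 24 to 50 and those lower 7 to 9, and the high ends of the first 2 came without LD ZT0 replicate 3. With the SD libraries only, an alternative chosen after seeing the data, 49 changed and 40 were higher. Without LD ZT0 replicates 2 and 3, also chosen after seeing the data, 36 were higher and 8 lower. All other alternatives for these counts stayed within 1.5 times of 25 higher and 7 lower. At ZT4, 75 to 79 members passed with each library left out. Of the named members called between ZT0 and ZT2, none turned its direction; *Medtr7g116520*, *Medtr4g083995* and *Medtr4g083540* lost the call in 5, 3 and 1 of the alternatives.

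With the replicate number as a block, 26 members were higher and 7 lower at ZT2, and 79 passed at ZT4. Only the first trifoliate leaf of a plant was sampled, so the numbers do not mark the same plants across groups. Whether they mark another pairing is not stated. SD and LD libraries with 1 number had deviations that correlated between -0.22 and 0.16. For ZT0 and ZT2 libraries with 1 number the range was -0.24 to 0.23. These correlations cannot decide whether the numbers are linked in another way. Counts of at most 10 in every library limit 3 members, and 3 replicates limit all.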
